A study of Drosophila melanogaster with 35 samples.

Results

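Rhodopsins and the genes that build the rhabdomere were followed through 12 fly genotypes. The 10 genes are ninaE, Rh3, Rh4, Rh5 and Rh6, which encode light-sensing opsins, and Cpn, inaF-B, ninaC, chp and eys, whose products act in or around the light-sensing organelle. They were picked by gene symbol, and all 10 were found among the 14279 genes of the table, each as a single row. No member was lost to a filter on low values.

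A fly eye is built of repeated units, the ommatidia, and each photoreceptor carries a rhabdomere, a stack of microvilli packed with rhodopsin. The outer photoreceptors R1 to R6 all express ninaE, which encodes Rh1. The inner photoreceptors R7 and R8 come in a pale form, in which R7 expresses Rh3 and R8 expresses Rh5, and a yellow form, in which R7 expresses Rh4 and R8 expresses Rh6. Light absorbed by rhodopsin opens the TRP channels of the rhabdomere through a Gq and phospholipase C cascade, and loss of rhodopsin or of rhabdomere proteins is a classical route to retinal degeneration in the fly.

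RNA from adult heads of flies aged 1 week was sequenced in 35 libraries, 3 for each genotype and 2 for tau alone. All genotypes carried the pan-glial driver Repo-LexA. In 18 libraries it was combined with the pan-neuronal driver elav-gal4: control flies, flies with LexAop2-TREM2-WT,TYROBP (TREM2WT/TYROBP), flies with LexAop2-TREM2-R47H,TYROBP (TREM2R47H/TYROBP), flies with UAS-Aβ42, and Aβ42 flies with either TREM2 transgene. In 17 libraries it was combined with GMR-gal4, a driver active in the developing and adult eye: control, TREM2WT/TYROBP, TREM2R47H/TYROBP, UAS-Tau, and tau with either TREM2 transgene. Aβ42 was therefore made in neurons in general, tau in the eye where the 10 genes are expressed, and TREM2 (human, wild type or with the Alzheimer's disease risk variant R47H) with its adaptor TYROBP in glia. The effect of each transgene on eye genes was read against the control of the same driver, and no source says that libraries of a genotype came from separate crosses, so p values measure the spread between libraries only.

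Levels are log2 CPM (read counts relative to library size), scaled between libraries and adjusted for the RNA integrity number (RIN) before deposition. RIN ran from 5.6 to 7.5. In the elav control it was 6.4 to 6.8, below the TREM2WT/TYROBP (6.9 to 7), TREM2R47H/TYROBP (6.9 to 7.1) and Aβ42/TREM2WT/TYROBP (7 to 7.1) libraries. In the GMR control it was 6.8 to 6.9, above tau/TREM2WT/TYROBP (5.6 to 6.4). In these comparisons genotype and RIN differ together. Within genotypes the deposited values changed with RIN, by 0.38 per RIN unit for Rh5 and by -0.22 for Rh4. The slopes were 0.17 for ninaC and -0.16 for ninaE, and between -0.13 and 0.03 for the other 6. Over all libraries the deposited values of these genes carry no slope on RIN. Whether the slopes within genotypes come from the RNA or from that earlier adjustment was not tested. In the GMR TREM2R47H/TYROBP libraries the deposited Rh5 level was 9.30 at a RIN of 6.9 and 8.87 and 8.82 at 5.7 and 5.6, whereas with the slope taken out it was 9.22, 9.25 and 9.24. All levels below are therefore given at equal RIN unless deposited values are named. A log2 fold change is the difference of levels in a limma fit that holds RIN. A gene is called when its adjusted p is under 0.05 (Benjamini-Hochberg over all 14279 genes) and its fold change is above 1.2, which is 0.263 on the log2 scale.

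The sex markers separated the drivers. The female yolk protein gene Yp1 was at 13.2 to 14.1 in all 17 GMR libraries, and the male dosage compensation RNA roX2 was at 0.59 to 1.68 there. In the 18 elav libraries roX2 was at 8.35 to 8.89 and Yp1 at 0.75 to 1.70, except for 2 elav control libraries, replicates 1 and 2, with Yp1 at 5.53 and 5.46. The elav labels write the driver chromosome over Y, the GMR labels write Repo-LexA over +, and the study describes its flies as male, so the GMR libraries go against that description. Sex markers, driver and stock cannot be told apart in any comparison between the drivers. Within the GMR libraries roX2 was called higher in tau/TREM2R47H/TYROBP flies than in control (0.76) and than with tau alone (0.89), and roX1 was called higher than with tau alone in tau/TREM2WT/TYROBP (0.28) and tau/TREM2R47H/TYROBP flies (0.30). Some of the results that rest on the elav control are also given without its replicates 1 and 2.

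Levels per gene length put ninaE far above the rest. In elav control flies it stood at 13.91 log2 units per kilobase (SD 0.009, n = 3), 4.62 above the next member, and in GMR control flies at 13.83 (SD 0.023, n = 3), 4.36 above the next. By deposited level alone it was the most abundant or second most abundant gene in every elav library, and ranked between 2 and 6 in the GMR libraries. The GMR ranks depend on the RIN adjustment of other genes. The deposited level of the yolk protein gene Yp2 ran from 8.26 to 18.49 there, against 13.97 to 14.79 at equal RIN. The gene lies on chromosome 3R at 19886255 to 19888206 of BDGP6, on the minus strand, with 5 exon blocks.

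The members other than ninaE fell into an upper and a lower tier. In elav controls the upper tier per kilobase ran from Rh4 (9.30) and ninaC (9.002) through Rh6 (8.56), Rh3 (8.47) and chp (8.03) to Rh5 (7.25). The lower tier held eys (5.52), Cpn (5.004) and inaF-B (4.83). The inaF-B value was divided by 3113 bases, of which 86.6% are shared with inaF-D. If reads in shared exons were dropped, its level per kilobase is understated, so its place under either driver is uncertain. The smallest gaps were those between Rh6 and Rh3 (0.09, with SDs of 0.041 and 0.031) and between Cpn and inaF-B (0.18, with SDs of 0.115 and 0.078). In GMR controls ninaC came second (9.47), followed by Rh4 (9.03), Rh3 (8.77), Rh5 (8.61), chp (8.32) and Rh6 (8.14). Cpn, eys and inaF-B again closed the order, at 5.45, 5.29 and 5.19, and the gaps of 0.16 and 0.11 between them were near their SDs of 0.118, 0.084 and 0.094.

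**Figure D1:**
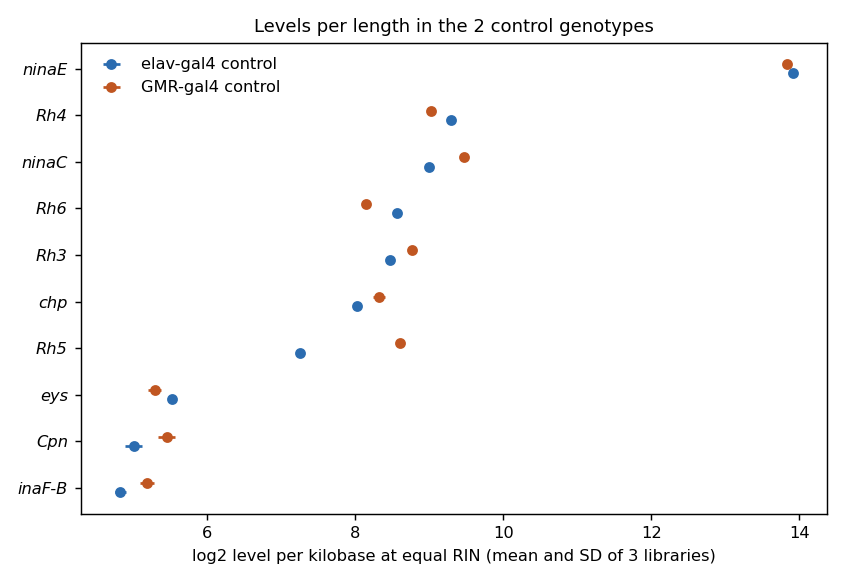
Levels of the 10 genes per kilobase of gene length (x axis, log2 at equal RIN) in the elav-gal4 and GMR-gal4 controls; points are means and bars the SD of 3 libraries. ninaE lies more than 4 log2 units above the others, and Rh5 is the gene whose level differs most between the drivers.

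The annotation shows where values of neighbouring genes could mix. Of the 10 genes, Rh3 (3R, 20081060 to 20082450, 1 exon), Rh5 (2L, 12008153 to 12009832), Rh6 (3R, 15483158 to 15484699), Cpn (3R, 12162887 to 12166186), ninaC (2L, 7377702 to 7384344) and chp (3R, 31204180 to 31210730) overlap no other gene of the table. Rh4 (3L, 16852527 to 16862517) spans sina, sinah and CG13029 on the opposite strand but shares 0 exon bases with them. For eys (2L, 2311680 to 2358944) 67 of 8481 exon bases, or 0.8%, are shared with CG9967. inaF-B (X, 11724668 to 11732770) also spans CG15221 on the opposite strand without shared exon bases. It is a row of 3113 exon bases of which 86.6% also belong to inaF-D and 31.3% to inaF-C and inaF-A on the same strand. How reads in shared exons were assigned is not given in the sources used here. An inaF-B value may therefore be partly a value of the locus. In GMR control flies inaF-B was at 6.82 and inaF-D at 1.39. Rh3 and Rh4 are close paralogs, and reads that fit both may have been split or dropped.

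**Figure D2:**
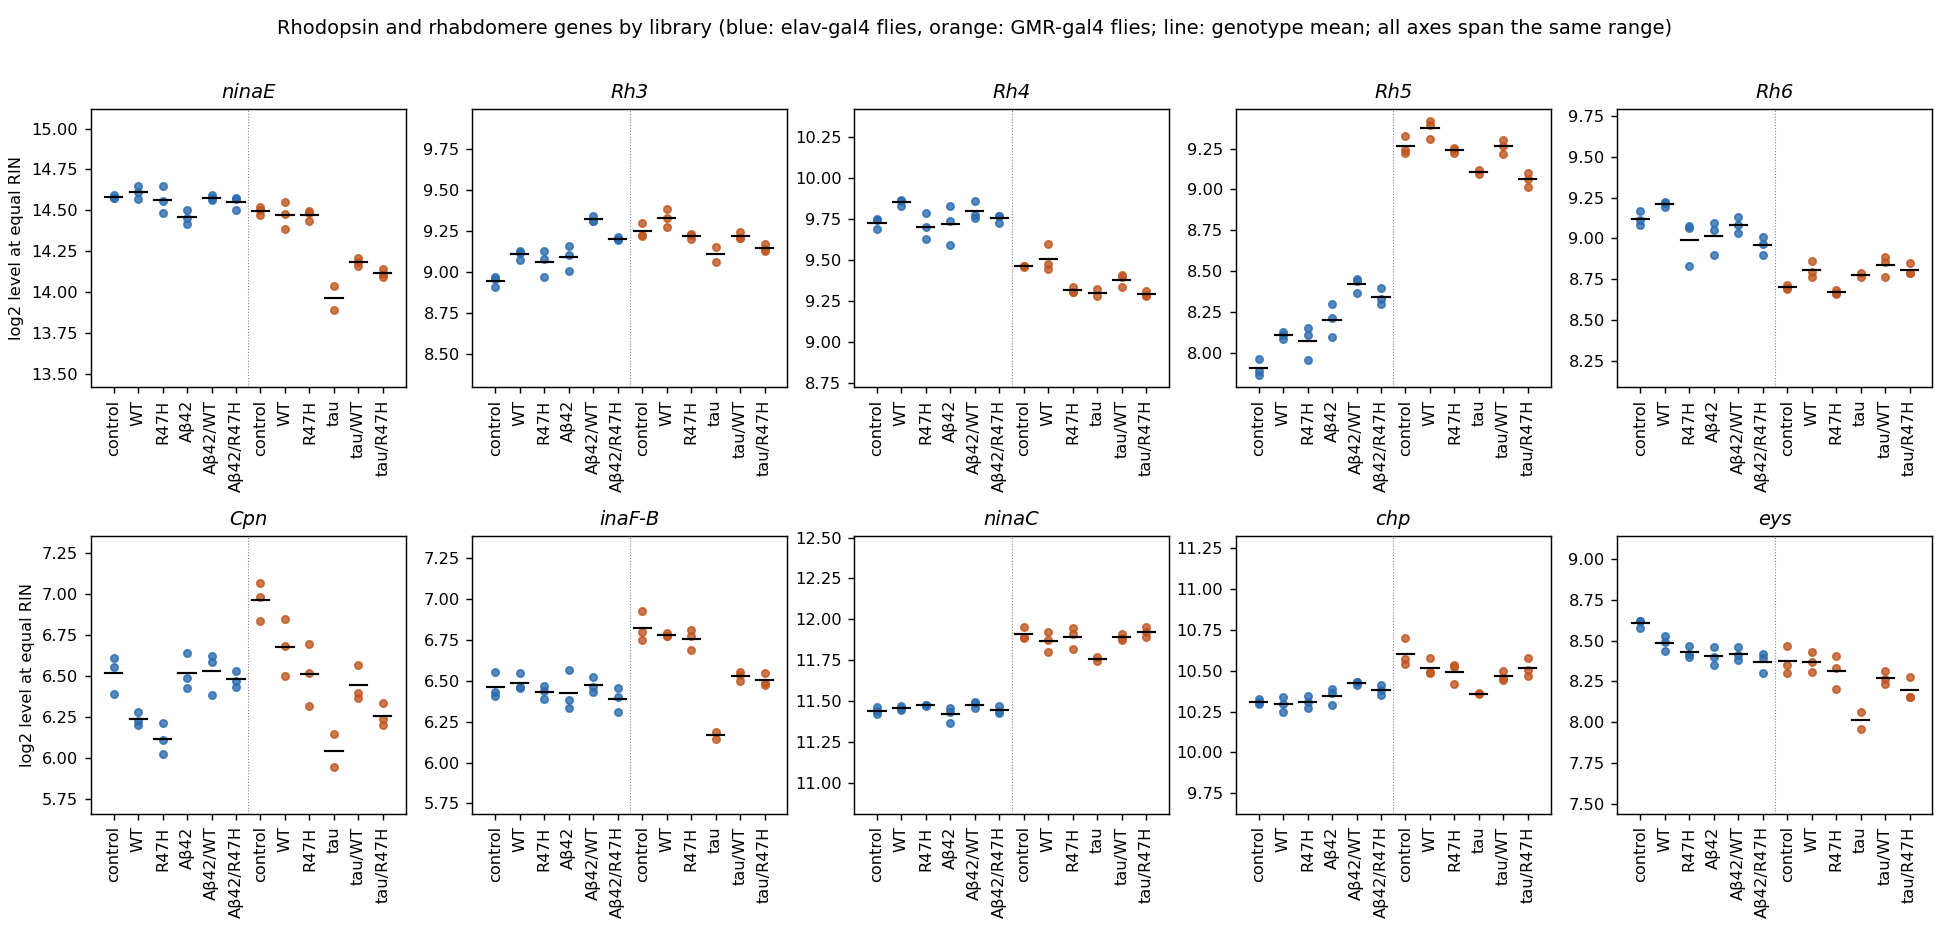
Level of each gene in every library (y axis, log2 at equal RIN; panels span the same range) for the 6 elav-gal4 genotypes (blue) and the 6 GMR-gal4 genotypes (orange); short lines are genotype means. The tau genotypes at the right stand below the GMR control for ninaE, Cpn and inaF-B. For eys tau alone lies below that control, and tau/TREM2WT/TYROBP overlaps it. Rh5 is higher in the Aβ42 genotypes than in the elav control.

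In heads of flies with tau in the eye, RNA of the R1 to R6 opsin and of part of the rhabdomere set was lower. Against the GMR control, ninaE, Cpn, inaF-B and eys were called lower in tau flies, and no member was called higher. These 4 of 10 stand beside 2.86% of all genes tested that were called lower (5.32% in either direction). The median log2 fold change of the 10 genes was -0.20, and that of all genes 0.01. Tau and control libraries did not overlap for 10 of 10 members and for 40.3% of all genes.

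For ninaE the 3 control libraries were at 14.52, 14.47 and 14.50 and the 2 tau libraries at 14.04 and 13.89. Both tau libraries lay below every control library, and the fall was 0.53 ± 0.049 (log2, SE; adjusted p = 5.6e-08), that is, the level fell by 30.9%. The 3 control libraries spanned 0.05, while those of GMR TREM2WT/TYROBP flies ran from 14.39 to 14.55. Quantile normalization gives a rank the same value in every library, and it was applied to the deposited values. Under it the change was 0.02 (adjusted p = 0.969). By deposited level ninaE ranked between 2 and 6 in the control and tau libraries. With each library centred on its median the change was -0.56.

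Cpn encodes calphotin, a calcium-binding protein of photoreceptors. Its control libraries were at 7.07, 6.98 and 6.84 and its tau libraries at 6.14 and 5.94. This was the largest change among the members, a fall of 0.92 ± 0.11 (adjusted p = 5.21e-06), so that the level fell by 47.2%, the tau libraries lying below all controls.

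inaF-B encodes a small membrane protein needed for normal TRP channel function. It was at 6.93, 6.75 and 6.80 in control and at 6.19 and 6.15 in tau flies, a fall of 0.66 ± 0.064 (adjusted p = 1.31e-07). The genes that share its exons moved too: inaF-D fell by 0.75 ± 0.13 (adjusted p = 0.000431) and inaF-C by 0.33 ± 0.094 (adjusted p = 0.025), both from low levels (1.39 and 2.81 in control), while inaF-A changed by 0.06 ± 0.22 at a level of 0.69.

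eys encodes the secreted proteoglycan that keeps the rhabdomeres of an ommatidium apart. It was at 8.47, 8.35 and 8.30 in control and at 8.06 and 7.96 in tau flies, a fall of 0.36 ± 0.060 (adjusted p = 0.000241). Both tau libraries were again below all controls.

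Chaoptin and NINAC changed less. chp, which encodes chaoptin, the adhesion protein that holds microvilli together, was at 10.70, 10.57 and 10.54 in control and 10.35 and 10.36 in tau flies. The difference of -0.25 ± 0.048 passed the adjusted p (0.00119) but not the fold threshold, and it was called with each library centred on its median (-0.27). ninaC, which encodes a myosin III with a kinase domain in the rhabdomere and cell body, was at 11.95, 11.89 and 11.88 in control and 11.75 and 11.77 in tau flies, a difference of -0.15 ± 0.037 (adjusted p = 0.00989) that also stayed below the fold threshold.

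The R7 and R8 opsins were not called. The log2 differences were -0.14 for Rh3 (95% interval -0.24 to -0.05), -0.16 for Rh4 (-0.27 to -0.05), -0.16 for Rh5 (-0.28 to -0.04) and 0.08 for Rh6 (-0.05 to 0.20). The adjusted p values of Rh3, Rh4 and Rh5 were 0.0571, 0.0713 and 0.0929. The interval of ninaE, -0.64 to -0.43, lies below all 4 of these; the difference between opsins was not itself tested. Rh6 was the only member with a tau mean above the control mean.

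**Figure D3:**
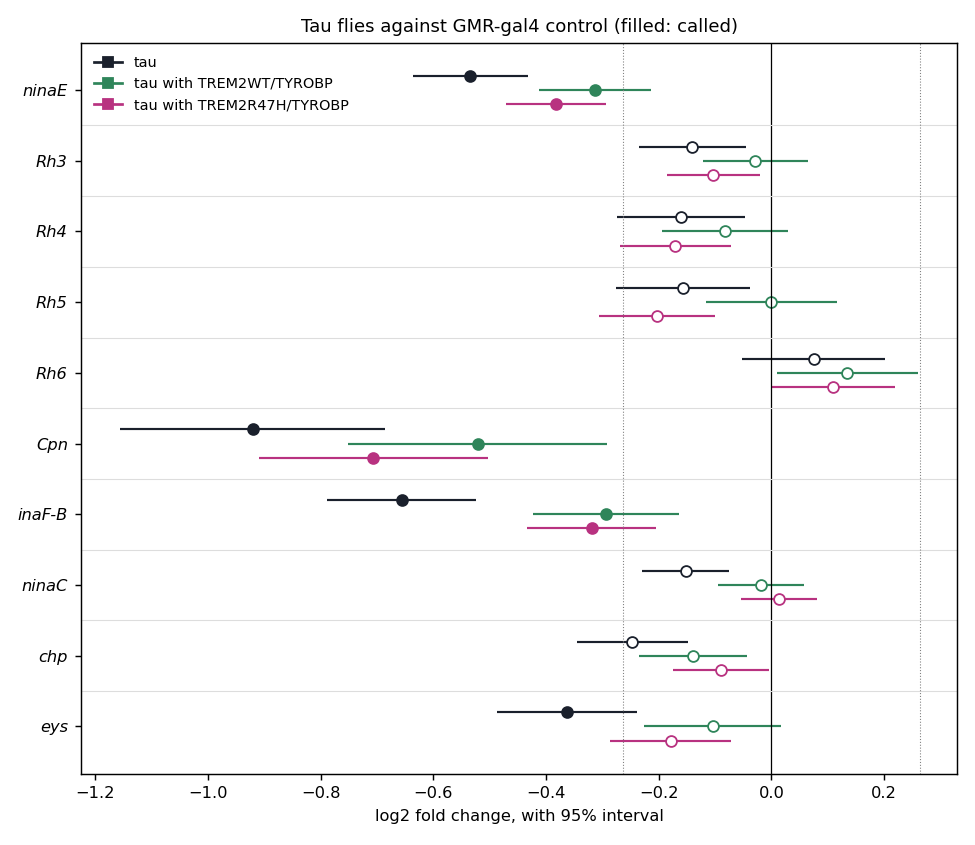
Log2 fold change of each gene against the GMR-gal4 control (x axis, with 95% interval from the limma fit) in tau flies and in tau flies with either TREM2 transgene; filled points are called and dotted lines mark a fold change of 1.2. ninaE, Cpn and inaF-B are called in all 3 tau genotypes and sit furthest left with tau alone.

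Other genes of vision gave a mixed picture in tau flies. Of 19 genes of the phototransduction cascade, 5 were called lower and 1 higher, beside 5.32% of all genes called in either direction, and the list median was -0.17. The arrestins that switch off activated rhodopsin were the largest, Arr1 with a fall of 0.51 and Arr2 with a fall of 0.43, followed by the lipid phosphatase gene laza with a fall of 0.32. Chosen after their values were seen, inaD, the scaffold of the cascade, fell by 0.31, and stops, the gene called higher, rose by 0.30. Among 8 measured genes for rhodopsin maturation and the chromophore, 3 were called lower and 1 higher. ninaD, a scavenger receptor for carotenoid uptake, rose by 0.59, while the pigment cell dehydrogenase gene Pdh and the carotenoid oxygenase gene ninaB fell by 0.52 and 0.44. None of 14 genes of the apical membrane and of rhabdomere trafficking was called, with values between -0.24 and 0.15. Of 15 photoreceptor transcription factor genes only so was called, with a fall of 0.49. The opsins of the ocelli and of other cells, Rh2 (0.13) and Rh7 (-0.17), were not called in tau flies. Rh7 was called lower than in the GMR control in tau/TREM2WT/TYROBP flies (-0.29, adjusted p = 4.05e-05) and tau/TREM2R47H/TYROBP flies (-0.42, adjusted p = 1.31e-08). Rh2 was called lower in GMR TREM2R47H/TYROBP flies than in their control (-0.30, adjusted p = 6.87e-05) and in tau/TREM2R47H/TYROBP flies than with tau alone (-0.32, adjusted p = 2.46e-05).

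Markers of other cells were read beside these values. The 8 pan-neuronal markers had 0 calls, and their summed level was 12.19 to 12.25 in control and 12.08 to 12.15 in tau libraries. Of 8 glial markers 1 was called, Gs2 with a fall of 0.29, and their sum was 11.22 to 11.31 in control and 11.16 to 11.18 in tau. Muscle markers fell in 3 of 6 cases (Act88F by 1.71, Mhc by 0.55 and up by 0.37), and their sum went from 12.12 to 12.37 in control to 11.82 to 11.89 in tau. Of 8 pigment cell and lens markers 2 were called higher and 3 lower: the pigment transporter gene w, a form of which marks many fly transgenes, rose by 1.97, and the corneal genes retinin and Cpr72Ec fell by 0.78 and 0.76. None of 7 fat body markers was called, though their sum was 16.52 to 16.60 in control and 16.78 to 16.86 in tau libraries. Of the sex markers roX1 was called, with a fall of 0.31. The part of these cells in the members' changes was not tested, and in RNA from whole heads fewer photoreceptors and less RNA per photoreceptor cannot be told apart.

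With TREM2 expressed beside tau, ninaE, Cpn and inaF-B were still lower than in control flies. In tau/TREM2WT/TYROBP flies 3 of 10 genes were called lower than in the GMR control, beside 3.22% of all genes (5.70% in either direction). In tau/TREM2R47H/TYROBP flies the same 3 were called lower, beside 4.08% (7.95% in either direction). They were ninaE (falls of 0.31 ± 0.048 and 0.38 ± 0.043), Cpn (0.52 ± 0.11 and 0.71 ± 0.098) and inaF-B (0.29 ± 0.062 and 0.32 ± 0.055). Their adjusted p values were at most 0.0029. In tau/TREM2WT/TYROBP flies the ninaE call was lost without RIN in the model (-0.20), the Cpn call with only GMR libraries fitted (adjusted p = 0.0548), and the inaF-B call without GMR control replicate 1 (-0.24). Quantile normalization turned the ninaE values to 0.44 and 0.14. These comparisons use the same control libraries as the comparison of tau alone.

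Set against tau alone, the level of inaF-B was higher with either TREM2 transgene. All comparisons with tau alone use the same 2 tau libraries, so those of the 2 transgenes are not independent. inaF-B was at 6.50, 6.54 and 6.55 in tau/TREM2WT/TYROBP and at 6.49, 6.48 and 6.55 in tau/TREM2R47H/TYROBP flies. All these values were above the tau libraries at 6.19 and 6.15 and below the control libraries. Against tau alone, 35.7% and 34.0% of all genes had no overlap. It rose by 0.36 ± 0.063 (adjusted p = 0.000629) and by 0.34 ± 0.062 (adjusted p = 0.00119). Without tau replicate 2 the latter call was lost, at an adjusted p of 0.0554.

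With TREM2WT/TYROBP, Cpn also rose against tau alone, by 0.40 ± 0.11 (adjusted p = 0.0401). Its libraries were at 6.57, 6.40 and 6.36, above the tau libraries at 6.14 and 5.94. This call was lost when any of the 5 libraries was left out, with log2 changes between 0.29 and 0.53. With TREM2R47H/TYROBP the Cpn libraries were at 6.24, 6.20 and 6.33 and the difference was 0.21 (95% interval -0.02 to 0.44). In all, 2 of 10 genes were called higher with TREM2WT/TYROBP, beside 1.30% of all genes (3.19% in either direction). With TREM2R47H/TYROBP it was 1 of 10, beside 1.78% (3.48% in either direction).

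Differences of eys, ninaE, ninaC and chp from tau alone were also positive but not called. eys differed from tau alone by 0.26 ± 0.059 with TREM2WT/TYROBP (adjusted p = 0.00947), just under the fold threshold, and by 0.18 ± 0.059 with TREM2R47H/TYROBP. ninaE was at 14.18, 14.21 and 14.16 with TREM2WT/TYROBP and at 14.09, 14.14 and 14.11 with TREM2R47H/TYROBP, above both tau libraries, with differences of 0.22 ± 0.048 (adjusted p = 0.00655) and 0.15 ± 0.048 (adjusted p = 0.0717). For ninaC the differences were 0.13 and 0.17, with adjusted p values of 0.0355 and 0.00644, and for chp 0.11 and 0.16, with adjusted p values of 0.245 and 0.0483. The 4 inner photoreceptor opsins had differences between -0.05 and 0.16, none with an adjusted p under 0.137.

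The TREM2 effect with tau was then compared with the TREM2 effect without tau. For TREM2WT/TYROBP this difference passed the adjusted p for 2 of 10 members, beside 0.357% of all genes: 0.69 ± 0.15 for Cpn (adjusted p = 0.0455) and 0.41 ± 0.084 for inaF-B (adjusted p = 0.0305). The TREM2WT/TYROBP difference of Cpn was -0.29 without tau and 0.40 with it, and that of inaF-B was -0.04 without tau and 0.36 with it. Both calls were lost when only GMR libraries were fitted (adjusted p = 0.277 and 0.116) and in 8 of the 11 fits that left out a library each, tau replicate 2 among them (adjusted p = 0.299 and 0.173). Over these fits the values ran from 0.59 to 0.82 for Cpn and from 0.35 to 0.44 for inaF-B. For TREM2R47H/TYROBP, 0 of 10 members were called, beside 0.175% of all genes, with values of 0.67 ± 0.17 for Cpn (adjusted p = 0.123) and 0.40 ± 0.093 for inaF-B (adjusted p = 0.0864). At an unadjusted p under 0.05, 6 of 10 members differed for TREM2WT/TYROBP and 6 of 10 for TREM2R47H/TYROBP, beside 14.5% and 10.7% of all genes.

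Wild type and R47H transgenes gave no called difference for any member in 4 comparisons, against 1.88%, 1.64%, 1.77% and 2.07% of all genes called in elav flies, Aβ42 flies, GMR flies and tau flies. At an unadjusted p under 0.05 the counts were 2, 2, 4 and 1 of 10 members in that order, beside 16.0%, 13.7%, 14.4% and 15% of all genes. In tau flies the R47H less wild type difference was -0.07 for ninaE (95% interval -0.17 to 0.03), -0.18 for Cpn (-0.41 to 0.04), -0.03 for inaF-B (-0.15 to 0.10) and -0.20 for Rh5 (-0.31 to -0.09, adjusted p = 0.0389, below the fold threshold). In elav flies without Aβ42 it was -0.22 for Rh6 (-0.33 to -0.11, adjusted p = 0.0199), also below the fold threshold.

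TREM2/TYROBP in glia was also studied without tau or Aβ42. With TREM2WT/TYROBP, 0 of 10 genes were called in elav flies and 0 of 10 in GMR flies, beside 4.01% and 4.69% of all genes, with 5 and 3 members at an unadjusted p under 0.05, beside 19.4% and 21.5% of all genes. With TREM2R47H/TYROBP, 1 of 10 was called lower in each driver background, beside 2.49% and 2.93% of all genes (4.41% and 5.76% in either direction). In both it was Cpn.

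Cpn libraries of elav TREM2R47H/TYROBP flies were at 6.11, 6.02 and 6.21 and those of the elav control at 6.39, 6.55 and 6.61, a fall of 0.40 ± 0.10 (adjusted p = 0.0196). In GMR flies they were at 6.69, 6.52 and 6.31 against 7.07, 6.98 and 6.84, a fall of 0.45 ± 0.11 (adjusted p = 0.013). The genotypes did not overlap in either background, nor did they for 30.0% and 34.0% of all genes. The effect in GMR less that in elav flies was -0.05 (95% interval -0.40 to 0.29). Between the drivers the effect of TREM2WT/TYROBP differed for 0 of 10 members and that of TREM2R47H/TYROBP for 0 of 10, beside 1.82% and 0.469% of all genes, and 0 and 2 members had an unadjusted p under 0.05, beside 12.9% and 8.66%. TREM2WT/TYROBP gave Cpn differences of -0.28 ± 0.10 and -0.29 ± 0.098, which were not called (adjusted p = 0.112 and 0.0775). With only the libraries of the same driver the R47H differences were -0.23 and -0.43 and not called (adjusted p = 0.503 and 0.112). Leaving out elav control replicate 2 or 3 or TREM2R47H/TYROBP replicate 2 also ended the elav call (adjusted p up to 0.0888), as leaving out GMR control replicate 1 ended the GMR call (adjusted p = 0.0549). The elav call was lost as well without the 2 controls with raised yolk protein RNA (-0.51, adjusted p = 0.0704), and the GMR call without the 3 libraries with a RIN under 6 (-0.26, adjusted p = 0.271), which leaves 1 TREM2R47H/TYROBP library. The pigment cell and lens markers had a summed level of 10.47 to 10.51 in elav control and 10.18 to 10.27 in elav TREM2R47H/TYROBP libraries, and of 10.55 to 10.62 and 10.21 to 10.49 in those of GMR flies, with Crys and Cpr72Ec called lower among 8 genes under each driver. The muscle marker sum was 12.12 to 12.37 in GMR control and 11.94 to 12.09 in GMR TREM2R47H/TYROBP libraries, with 0 of 6 genes called. The part of these cells in the Cpn values was not tested.

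Mean levels of the pale opsins Rh5 and Rh3 were above the elav control in the Aβ42 genotypes. They were also above it with TREM2/TYROBP alone, there below the fold threshold. Rh5, the blue-sensitive opsin of pale R8 cells, was called higher in all 3 Aβ42 genotypes, and Rh3, an ultraviolet-sensitive opsin of pale R7 cells, in Aβ42/TREM2WT/TYROBP flies. The counts were 1, 2 and 1 of 10 genes called higher in Aβ42, Aβ42/TREM2WT/TYROBP and Aβ42/TREM2R47H/TYROBP flies, beside 2.85%, 3.62% and 4.59% of all genes. In either direction 6.10%, 8.66% and 10.5% of all genes were called, and a count of 1 of 10 is near the last of these. No member was called lower. Each of these comparisons uses the 3 elav control libraries.

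Rh5 was at 7.96, 7.89 and 7.87 in the elav control and at 8.30, 8.21 and 8.10 with Aβ42. It rose by 0.30 ± 0.050 (adjusted p = 0.000184). With TREM2WT/TYROBP added it was at 8.37, 8.45 and 8.44, 0.51 ± 0.053 above control (adjusted p = 1.46e-07), and with TREM2R47H/TYROBP at 8.40, 8.33 and 8.30, 0.44 ± 0.050 above control (adjusted p = 9.03e-07). None of the 9 Aβ42 libraries overlapped the controls, and 31.1%, 36.3% and 39.2% of all genes had no overlap in the 3 comparisons. Without the 2 controls with raised yolk protein RNA the changes were 0.34, 0.56 and 0.48, all called. RIN did not overlap between Aβ42/TREM2WT/TYROBP and control libraries, and over all alternatives that change ran from 0.40 to 0.71. The call in Aβ42 flies was lost with the elav libraries fitted alone, where the change of 0.26 fell just under the fold threshold, and without Aβ42 replicate 1 (0.25).

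Rh3 moved with Rh5 at a smaller size. Its libraries were at 8.97, 8.96 and 8.91 in control, at 9.11, 9.16 and 9.01 with Aβ42, at 9.31, 9.31 and 9.35 with TREM2WT/TYROBP added and at 9.20, 9.20 and 9.22 with TREM2R47H/TYROBP added. The differences were 0.15 ± 0.040 (adjusted p = 0.017, below the fold threshold), 0.38 ± 0.042 (adjusted p = 5.42e-07, called) and 0.26 ± 0.040 (adjusted p = 4.71e-05, just below the fold threshold). That last value was 0.30 and called without the 2 controls with raised yolk protein RNA.

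No yellow opsin was called. Rh4, the ultraviolet-sensitive opsin of yellow R7 cells, differed from control by -0.01 (95% interval -0.11 to 0.09), 0.07 (-0.04 to 0.17) and 0.03 (-0.07 to 0.13), and Rh6, the green-sensitive opsin of yellow R8 cells, by -0.11 (-0.22 to 0.00), -0.04 (-0.16 to 0.08) and -0.16 (-0.27 to -0.05). ninaE differed by -0.12 ± 0.043 in Aβ42 flies (adjusted p = 0.065) and by at most 0.03 in size in the other Aβ42 genotypes. eys was 0.20, 0.19 and 0.24 lower, with adjusted p values of 0.0109, 0.0202 and 0.00226, all below the fold threshold. inaF-B, ninaC, chp and Cpn differed by at most 0.11 in size.

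TREM2 without Aβ42 went with differences in the pale opsins that stayed below the fold threshold. With TREM2WT/TYROBP, Rh5 was 0.20 ± 0.052 and Rh3 0.16 ± 0.042 above control (adjusted p = 0.0186 and 0.0184), and with TREM2R47H/TYROBP 0.16 ± 0.053 and 0.11 ± 0.042 above it (adjusted p = 0.0585 and 0.105). None of the 4 values reached a fold of 1.2. Added to Aβ42, TREM2WT/TYROBP went with a further 0.22 ± 0.050 for Rh5 and 0.23 ± 0.040 for Rh3 (adjusted p = 0.0111 and 0.000651), and TREM2R47H/TYROBP with 0.14 and 0.11 (adjusted p = 0.0668 and 0.0608). No member was called in these 2 comparisons, beside 3.10% and 6.16% of all genes, while 3 and 3 of 10 had an unadjusted p under 0.05, beside 18.3% and 26.5% of all genes. The effect of TREM2 with Aβ42 did not differ by a called amount from its effect without Aβ42 for any member (0 of 10 for each transgene, beside 0.238% and 0.672% of all genes). For Rh5 these differences of effects were 0.02 (95% interval -0.13 to 0.16) and -0.03 (-0.17 to 0.12), and 1 of 10 members had an unadjusted p under 0.05 for each transgene, beside 7.07% and 10.3% of all genes.

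**Figure D4:**
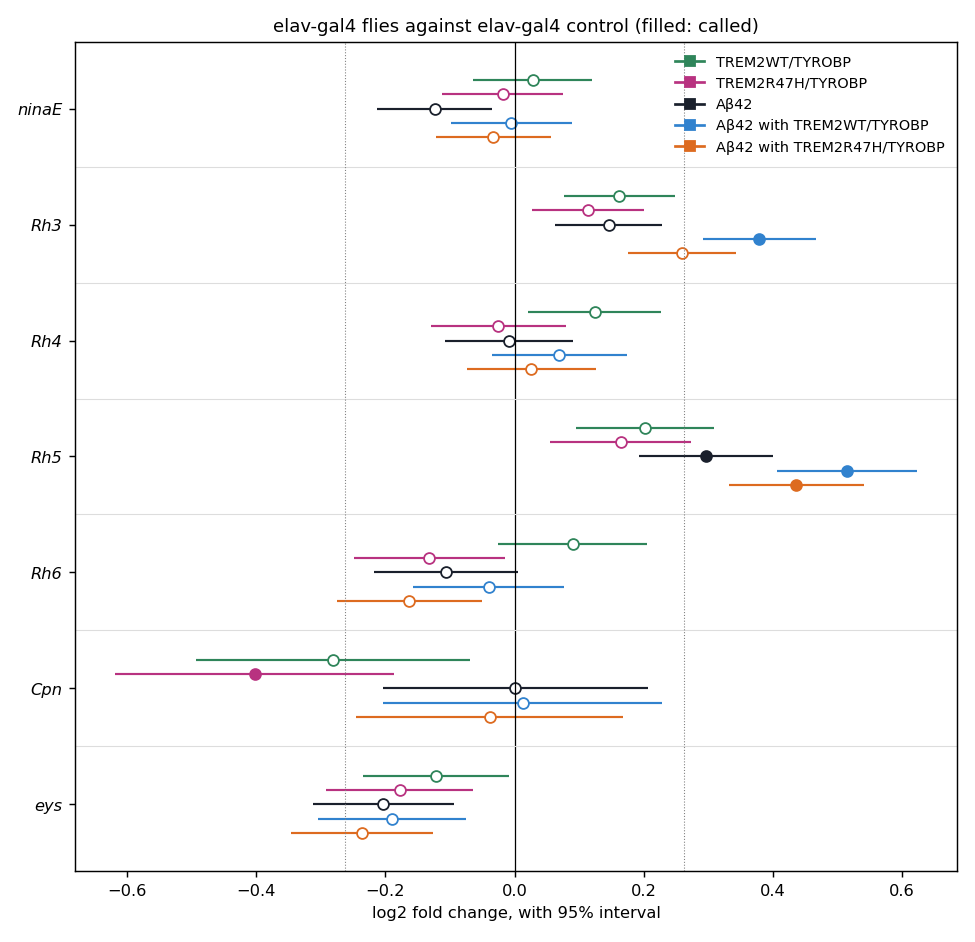
Log2 fold change against the elav-gal4 control (x axis, with 95% interval) for the 5 opsins, Cpn and eys in the 5 other elav genotypes; filled points are called and dotted lines mark a fold change of 1.2. Rh5 lies to the right in all 3 Aβ42 genotypes, and Cpn is called in TREM2R47H/TYROBP flies alone.

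Other genes of vision were read in the Aβ42 genotypes as well. In the phototransduction cascade 1 of 19 genes was called in each of the 3 genotypes, beside 6.10%, 8.66% and 10.5% of all genes called in either direction. It was the scaffold gene inaD, which fell by 0.73 with Aβ42, by 0.49 with TREM2WT/TYROBP added and by 0.35 with TREM2R47H/TYROBP added. Of the maturation and chromophore genes, ninaD fell by 0.64 and pinta, a retinoid-binding protein gene, by 0.37 in Aβ42 flies. None of the 14 apical membrane and trafficking genes was called in any of the 3 genotypes against control, nor were Rh2 and Rh7. Rh7 was called lower in Aβ42/TREM2R47H/TYROBP flies than with Aβ42 alone (-0.27, adjusted p = 2.24e-05). Of the transcription factor genes, salr was called in Aβ42/TREM2R47H/TYROBP flies, with a fall of 0.29. Pan-neuronal markers had 0, 1 and 2 of 8 genes called lower in the 3 genotypes and muscle markers 0, 1 and 3 of 6, beside 3.25%, 5.04% and 5.89% of all genes called lower. Among pigment cell and lens markers w rose by 1.15, 1.24 and 1.17 and Cpr72Ec fell by 0.37, 1.43 and 1.49. The part of these cells in the members' values was not tested.

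The ratio of pale to yellow opsin within a library sums up these shifts and is given as a description. For the R8 pair, Rh5 less Rh6 was -1.20, -1.20 and -1.25 in the elav control and rose through TREM2WT/TYROBP (-1.09, -1.11 and -1.10), TREM2R47H/TYROBP (-0.97, -0.91 and -0.88) and Aβ42 (-0.75, -0.88 and -0.80) to Aβ42/TREM2WT/TYROBP (-0.67, -0.63 and -0.69) and Aβ42/TREM2R47H/TYROBP (-0.61, -0.63 and -0.60). Neighbours in this order overlapped only for TREM2R47H/TYROBP with Aβ42 and for the 2 Aβ42 genotypes with TREM2. On the linear scale Rh5 stood at 0.43 times Rh6 in control and at 0.65 times Rh6 in Aβ42/TREM2R47H/TYROBP flies. In the deposited values, before RIN was equalised, the same 6 genotypes ran from -1.41 to -0.43.

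For the R7 pair the genotypes came in another order. Rh3 less Rh4 had a mean of -0.78 (SD 0.005, n = 3) in the elav control, -0.75 and -0.64 with TREM2WT/TYROBP and TREM2R47H/TYROBP, -0.63 with Aβ42, and -0.47 and -0.55 in Aβ42 flies with TREM2WT/TYROBP and TREM2R47H/TYROBP. It was thus highest with Aβ42/TREM2WT/TYROBP, whereas Rh5 less Rh6 was highest with Aβ42/TREM2R47H/TYROBP. In GMR flies the R8 pair was highest without tau. Rh5 less Rh6 was 0.56, 0.57 and 0.57 in control, TREM2WT/TYROBP and TREM2R47H/TYROBP flies and 0.33, 0.43 and 0.25 in tau, tau/TREM2WT/TYROBP and tau/TREM2R47H/TYROBP flies. No library with tau reached the lowest library without it (0.45 against 0.51). The deposited values, in which RIN is not equalised, did overlap, at -0.12 to 0.43 with tau and -0.01 to 0.95 without.

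**Figure D5:**
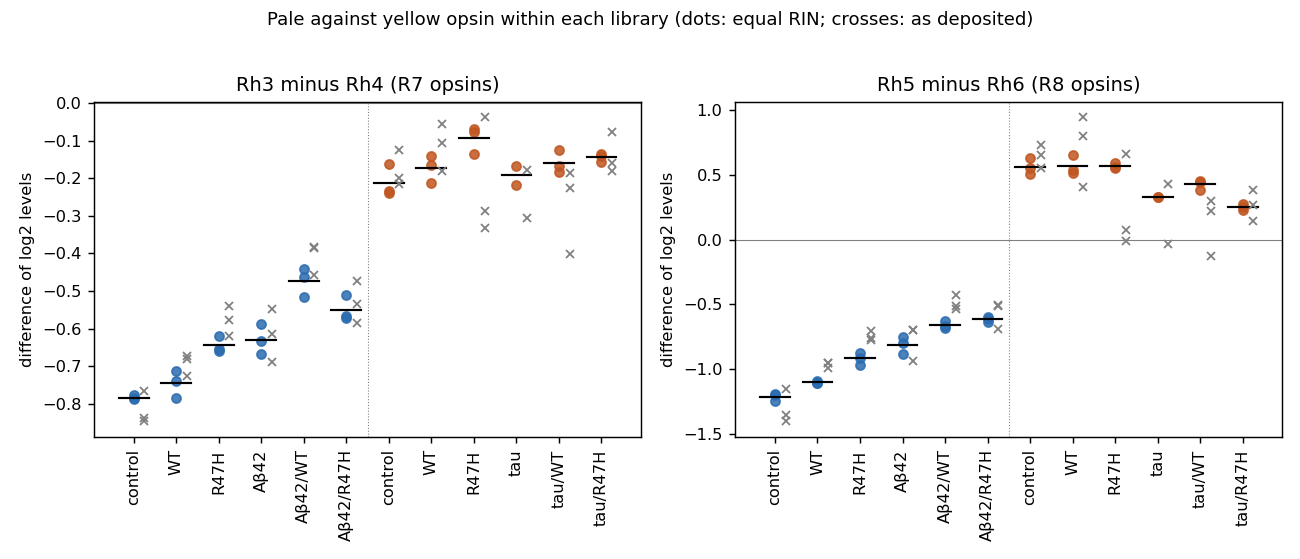
Difference of log2 levels between the pale and the yellow opsin of R7 (left) and of R8 (right) in every library; dots are values at equal RIN with the genotype mean as a line, and crosses are the deposited values. By genotype mean at equal RIN, both differences among elav flies are lowest in the control and highest in the Aβ42 genotypes with TREM2. At equal RIN the R8 difference changes sign between the drivers, while some deposited GMR values are negative too.

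Rh5 differed more between the 2 controls than between any transgenic genotype and its control. Between GMR control and elav control flies, 8 of 10 genes were called, 6 higher and 2 lower in GMR flies, beside 13.2% of all genes called higher and 11.5% called lower (24.7% in all). Rh5 was at 9.24, 9.22 and 9.32 in GMR and at 7.96, 7.89 and 7.87 in elav controls, 1.36 ± 0.051 higher (adjusted p = 3.21e-16) or 2.56-fold. Rh3 was 0.30 ± 0.041 higher, while Rh4 and Rh6 were lower by 0.27 and 0.42.

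The structural genes split as well. ninaC was 0.47 ± 0.033 higher in GMR controls (adjusted p = 5.6e-11), Cpn 0.45 ± 0.10, inaF-B 0.36 ± 0.057 and chp 0.29 ± 0.042. ninaE differed by -0.08 (95% interval -0.18 to 0.01), and eys by -0.23 ± 0.053 (adjusted p = 0.00115), below the fold threshold. Both were called lower in some alternatives. For ninaE this was quantile normalization (-1.16, adjusted p = 4.47e-05). For eys it was median centring (-0.29) and leaving out GMR control replicate 1 (-0.28). Centring each library on its median took the calls of Rh3 (0.25) and chp (0.24), quantile normalization those of Rh3 (0.21), chp (0.05) and ninaC (0.23), and leaving out the 2 elav controls with raised yolk protein RNA took those of Rh4 (-0.22) and Cpn (0.34). The Rh4 call was lost without either of them alone (-0.25 and -0.26), and the chp call without GMR control replicate 1 (0.25). Among lists, 5 of 19 phototransduction genes were called higher and 0 lower, led by stops (0.74), inaC (0.52) and rdgB (0.51), and muscle markers were higher for 4 of 6 genes. Yolk protein genes were 8.13 to 9.49 higher, and the differences of roX1 and roX2 were -5.69 and -7.72, so that driver, sex markers and stock cannot be told apart for any of these values.

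Members varied together in different ways under the 2 drivers. Over the 17 GMR libraries the level of ninaE followed that of inaF-B (r = 0.93), Cpn (0.83) and eys (0.83), and inaF-B followed eys (0.92). Over the 18 elav libraries the same 4 values were 0.25, -0.31, 0.43 and 0.43. The tightest pair in elav flies was Rh3 with Rh5 (0.93), which was also close in GMR flies (0.86). Rh4 with Rh6 gave 0.76 in elav and 0.18 in GMR flies. These correlations are across libraries that share genotypes, so they describe the genotype means as much as single libraries.

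Outside the 10 genes, those with the most similar pattern to the mean of the members (each member scaled to unit variance, over 35 libraries and 10130 other genes) were DAAM, eya, so, Arr2 and CG9444. Within the 17 GMR libraries their correlations with that mean were 0.90, 0.89, 0.86, 0.84 and 0.80, and within the 18 elav libraries 0.44, 0.57, 0.44, 0.49 and 0.75. DAAM encodes a formin that assembles actin, eya and so encode partner transcription factors of eye development, and Arr2 encodes the main arrestin of photoreceptors. The closest genes to ninaE were ltd, CG3308 and Cyp4g15, with correlations of 0.97, 0.97 and 0.95 in GMR and 0.78, 0.60 and 0.74 in elav libraries. ltd encodes a Rab GTPase of pigment granule biogenesis.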

How the data were processed

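Head RNA of the 35 libraries was depleted of ribosomal RNA and sequenced single-ended by the authors, from libraries whose kit does not mark strand. Per the submitters' processing notes and the study's methods, STAR 2.5.0b aligned the reads to BDGP6 and featureCounts counted them over Ensembl gene models. Genes that never reached 5 reads in any sample were dropped, and the values were normalized by TMM. The deposited table holds log2 values (log2 CPM, adjusted for RIN by the authors) for 14279 genes. It holds no counts, so depth is unknown and precision comes from the spread between libraries alone. Over all libraries the deposited values carry no slope on RIN, so a difference between genotypes of unequal RIN may have been taken out in part.

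A linear model of 12 genotypes plus RIN was fitted to all 35 libraries with limma 3.58.1 under R 4.3.3. Residual degrees of freedom were 22, to which moderation added 1.05. Contrasts were adjusted by the Benjamini-Hochberg method over the whole table. The fold threshold of 1.2 was not applied to differences of effects. Equal-RIN levels are deposited levels less the fitted slope, set to the mean RIN of 6.71, and levels per kilobase use the deposited gene lengths. Spans were compared with an Ensembl annotation, which has the same span for all 10 members and for 13795 of the 14279 genes. The code was tested on simulated data.

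Members and lists were chosen with earlier results of these data known. All 10 members were described. Outside them, genes were named if they were among the 3 largest called of a list, the 5 most like the mean of the members or the 3 most like ninaE, if they overlapped a member, or if they were opsins or sex markers. ninaA and Xport-A were not analysed here.

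Titles give replicate numbers. Deviations of same-numbered libraries correlated above 0.1 in every pair in 1 of 19 comparisons (tau/TREM2R47H/TYROBP against control, 0.131 to 0.439), where the numbers may pair libraries, and a model with the replicate as a block was run for every comparison. The other alternatives were no RIN term, libraries of 1 driver, only the genotypes compared, a filter at a mean log2 level of 0, a pseudocount of 1, quantile normalization, median centring, trend and robust moderation, a log2 threshold of 1 or no fold threshold, and each library left out in turn. Leaving out the 2 elav controls with raised yolk protein RNA, and the 3 libraries with a RIN under 6, was chosen after seeing the data.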

Additional observations from a re-analysis of the deposited data

Results flagged for a closer look

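For 2 genes the effect of TREM2WT/TYROBP differed between flies with and without tau by the limma test of the difference itself. The effect with tau less the effect without was 0.69 (SE 0.15, adjusted p = 0.0455) for Cpn and 0.41 (SE 0.08, adjusted p = 0.0305) for inaF-B on the log2 scale. The tau genotype has 2 libraries, and without tau replicate 2 the values were 0.59 and 0.39, neither of them called.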

How the results depend on the processing

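Of 29 member calls, 1 was kept under every alternative run (Rh5 between the controls) and 12 under all but the 2 strictest, a log2 threshold of 1 and fits of only the genotypes compared. Of 221 uncalled member values, 31 were called in at least 1 alternative. With only the genotypes compared, the count of called members was 0 for TREM2R47H/TYROBP alone under both drivers, for all 3 Aβ42 and all 3 tau genotypes against control, for both tau comparisons of TREM2 with tau alone and for the tau by TREM2WT/TYROBP difference, and 3 between the controls. A log2 threshold of 1 gave 0 for the same comparisons against control and with tau alone, and 1 between the controls. Fewer libraries enter the former and fewer genes can pass the latter by construction.

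Without a fold threshold the count was 2 for elav TREM2WT/TYROBP, 3 for Aβ42 and 4 for Aβ42/TREM2R47H/TYROBP against control, 1 for elav R47H against wild type, 2 for TREM2WT/TYROBP added to Aβ42, 6 for tau/TREM2R47H/TYROBP against control, 5 and 3 for TREM2WT/TYROBP and TREM2R47H/TYROBP added to tau, and 1 for R47H against wild type with tau. With libraries of 1 driver it was 0 for TREM2R47H/TYROBP under both drivers, 0 for Aβ42, 1 for TREM2WT/TYROBP added to tau and 0 for the tau by TREM2WT/TYROBP difference. Under quantile normalization it was 1 for elav TREM2WT/TYROBP, 2 for Aβ42/TREM2R47H/TYROBP, 1 for elav R47H against wild type and 2 for TREM2WT/TYROBP added to Aβ42, and ninaE turned to 0.0231, 0.44 and 0.14 in tau, tau/TREM2WT/TYROBP and tau/TREM2R47H/TYROBP flies. Without RIN in the model it was 1 for GMR R47H against wild type, 4 for TREM2WT/TYROBP added to tau, 2 for the tau by TREM2R47H/TYROBP difference and 1 for the TREM2R47H/TYROBP effect between drivers, and trend and robust moderation gave 1 for that tau difference. Without the 2 elav controls with raised yolk protein RNA it was 0 for elav TREM2R47H/TYROBP and 2 for Aβ42/TREM2R47H/TYROBP, and without the 3 libraries with a RIN under 6 it was 0 for GMR TREM2R47H/TYROBP and 1 for the tau by TREM2WT/TYROBP difference. Beyond what the construction of an alternative shows, the cause was not tested.

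With 1 library left out, the count ran from 0 to 1 for elav TREM2R47H/TYROBP, Aβ42, elav R47H against wild type, TREM2WT/TYROBP added to Aβ42, GMR TREM2WT/TYROBP, GMR TREM2R47H/TYROBP, TREM2R47H/TYROBP added to tau and the tau by TREM2R47H/TYROBP difference, from 1 to 2 for Aβ42/TREM2R47H/TYROBP, from 1 to 3 for TREM2WT/TYROBP added to tau and from 0 to 2 for the tau by TREM2WT/TYROBP difference. The falls with tau alone were called in all 5 such fits, at -0.61 to -0.43 for ninaE, -1.02 to -0.79 for Cpn, -0.70 to -0.60 for inaF-B and -0.42 to -0.30 for eys. A replicate block, with the pairing of libraries by number, left 4 members called for tau and 3 for tau/TREM2R47H/TYROBP, and 3 in place of 2 for TREM2WT/TYROBP added to tau, and moved no count by more than 1.5 times.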
